A study of Mus musculus with 12 samples.

Results

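Transcripts of 10 genes of the circadian clock and its immediate output were followed through the abdominal aorta of mice labelled as having or lacking CCN2 in smooth muscle cells (SMCs). The genes were taken by symbol from the Ensembl rows of the expression table: Arntl, Clock, Per1, Per2, Per3, Nr1d1, Nr1d2, Dbp, Tef and Ciart, 10 of the 55092 features listed, and all 10 passed the filter on low values. Each of 12 male mice gave 1 library of its abdominal aorta and is known by the number in its label, with 3 mice in each of 4 groups. CFS and CFA were CCN2fl/fl mice, which carry floxed Ccn2 and no Cre, with pumps holding saline in CFS and Ang II in CFA for 7 days. CSS and CSA were CCN2SMC∆ mice, in which the same floxed alleles were recombined by a tamoxifen-inducible Cre under the Myh11 promoter, with saline in CSS and Ang II in CSA for the same time. Per the study's methods, all 4 groups had received 5 doses of tamoxifen at 8 weeks of age and a 2 week washout, and Ang II was delivered by mini-osmotic pump at 500 ng/kg/min. Since Myh11 drives the Cre, the deletion is by design limited to smooth muscle, with Ccn2 kept in the other cells of the wall. These bulk libraries do not measure in which cells Ccn2 was deleted. The time of day at which the tissue was taken is not given in the sources used here, so a difference in time of collection and a difference between groups cannot be told apart in any comparison of these genes.

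The molecular clock is a feedback loop that runs in nearly every cell, including vascular smooth muscle, endothelium and macrophages. The proteins of Arntl (also called Bmal1) and Clock pair to activate genes through E-box elements in DNA; the Per proteins, with the Cry proteins, return to block that pair, and the Nr1d receptors (Rev-erb alpha and beta) repress Arntl. Dbp and Tef are transcription factors of the PAR bZIP family that are driven by the loop and pass its rhythm to other genes through D-box elements. As a result, Arntl in a mouse tissue peaks at the opposite side of the day from Dbp, Tef, Ciart, the Nr1d genes and the Per genes, which peak in turn, and the level of each depends strongly on the hour.

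The deposited values are FPKM, fragments scaled to the length of the gene and the size of the library, and fold changes are given on the scale of log2(FPKM + 0.1). Fragments recovered from the values numbered 14555477 to 23102704 per mouse, and 22 to 222 of them fell on Ciart, the least abundant of the 10 genes. The targeted gene, Ccn2, was at 1013, 1105 and 564 FPKM in CFA and at 255, 331 and 399 FPKM in CSA, a log2 fold change of -1.41 (SE 0.34, limma adjusted p = 0.00622). The two-sided exact permutation p was 0.1, which is as low as groups of 3 can reach. In the saline groups it was at 709.5, 1108 and 480.1 FPKM in CFS and at 436, 639.9 and 587 FPKM in CSS, and these groups overlapped (log2 fold change -0.40, exact permutation p = 0.4). Of the exonic bases of Ccn2, 23.2% are shared with Gm15270 on the opposite strand. The CSA aortas differed from the rest in their cell type markers. The sum of 8 smooth muscle markers was 800.8 to 961 FPKM in CSA against 5589 to 8467 FPKM in CFA, with 8 of 8 called lower, and the sum of 8 macrophage markers was 1910 to 2003 FPKM against 281 to 575 FPKM, with 7 of 8 called higher. Of all tested genes 17.2% were called between CSA and CFA (8.27% lower). Bulk tissue cannot tell fewer cells of a type from less RNA per cell. Cage, litter and day of collection are not given in the sources used here, and p-values measure no more than the spread between mice. In limma that spread is 1 estimate per gene, shared by the 4 groups and moderated across genes, although the groups differed in spread.

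Short windows of the RefSeq promoters (GRCm38.p6) are shown first, because Per1, Tef and Ciart each carry the E-box CACGTG through which Arntl and Clock act, and Per3 carries 2 copies of the D-box TTATGTAA through which Dbp and Tef act. Windows ran from 250 bases before to 50 bases after each annotated start and were read on both strands. Of the 10 genes, 9 had at least 1 window (14 in all), and Per2 had none. E-boxes were found in 3 of these 9, with 6 matches in 4 windows, where 7.15% of the 32851 mouse windows of the same length hold the letters. The D-box, searched as TTATGTAA or TTACGTAA, is held by 1.06% of all windows, the element TAGGTCA, which the Nr1d proteins and Rora share, by 2.61%, and the cAMP response element TGACGTCA, found in none of the 14, by 1.79%. The stretches below are written 5′ to 3′ on the strand of the gene, with the matched letters in capitals. That of Ciart (chr3:95882229-95882378, minus strand) has E-boxes that begin 116, 58 and 44 bases before the start. Those of Tef (chr15:81802523-81802672, plus strand) and Per1 (chr11:69098749-69098898, plus strand) have 1 E-box each, at 127 and 166 bases before it. That of Per3 (chr4:151044746-151044895, minus strand) has D-boxes at 205 and 158 bases before the start, and that of Arntl (chr7:113207529-113207558, plus strand) has TAGGTCA at position 31 counted from the second of its annotated starts.
Ciart: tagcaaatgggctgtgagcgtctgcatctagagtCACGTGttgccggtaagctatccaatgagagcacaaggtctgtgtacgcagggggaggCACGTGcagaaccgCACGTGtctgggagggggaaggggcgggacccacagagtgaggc
Tef: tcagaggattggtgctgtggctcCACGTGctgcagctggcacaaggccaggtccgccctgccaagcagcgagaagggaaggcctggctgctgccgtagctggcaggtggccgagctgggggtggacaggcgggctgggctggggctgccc
Per1: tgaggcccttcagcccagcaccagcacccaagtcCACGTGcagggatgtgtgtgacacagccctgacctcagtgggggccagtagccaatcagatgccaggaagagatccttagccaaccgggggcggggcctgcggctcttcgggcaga
Per3: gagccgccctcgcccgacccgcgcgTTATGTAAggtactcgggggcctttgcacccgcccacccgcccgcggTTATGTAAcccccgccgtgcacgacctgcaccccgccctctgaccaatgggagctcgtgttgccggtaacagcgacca
Arntl: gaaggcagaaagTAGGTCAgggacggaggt
The windows of Clock, Nr1d1, Nr1d2 and Dbp held none of these letters. A match is a description of the sequence and not a measured binding site.

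Arntl (ENSMUSG00000055116, chr7:113207465-113314126) encodes the activator whose transcript is the usual reference for clock phase. It was highest in the CFS aortas, at 5.80, 6.03 and 4.57 FPKM in mice 68, 69 and 70, and lowest in CSA, at 1.98, 1.13 and 1.35 FPKM in mice 01, 02 and 03. CSS mice 54, 55 and 56 had 1.72, 3.53 and 1.25 FPKM, and CFA mice 71, 72 and 74 had 4.52, 1.52 and 3.49 FPKM. All 3 CFS mice lay above every other mouse of the series, whereas CSS, CFA and CSA overlapped one another. The log2 fold change was -1.42 between CSS and CFS (SE 0.43, adjusted p = 0.502), -0.89 between CFA and CFS (adjusted p = 0.568) and -0.95 between CSA and CFA (adjusted p = 0.0993). No comparison of Arntl passed the test across all genes. The last of these reached -1.39 (limma adjusted p = 0.0171) when CFA mouse 72, the lowest of its group, was left out. It was -0.64 (adjusted p = 0.312) without CFA mouse 71, the highest.

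Clock (ENSMUSG00000029238, chr5:76209868-76304792) encodes the partner of Arntl and cycles little in most tissues. Its level was 10.1, 10.6 and 9.89 FPKM in CFS, 8.64, 8.80 and 6.62 FPKM in CSS, 9.38, 6.96 and 8.15 FPKM in CFA, and 4.14, 3.55 and 6.24 FPKM in CSA. The CSA mice lay below every mouse of the 3 other groups. Clock fell by 0.83 on the log2 scale between CFA and CSA (SE 0.20, adjusted p = 0.00718) and by 0.81 between CSS and CSA (adjusted p = 0.00724), short of the fold limit of 1.5 used for calls. Under saline the log2 difference between CSS and CFS was -0.35, with a 95% interval from -0.80 to 0.10.

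**Figure D1:**
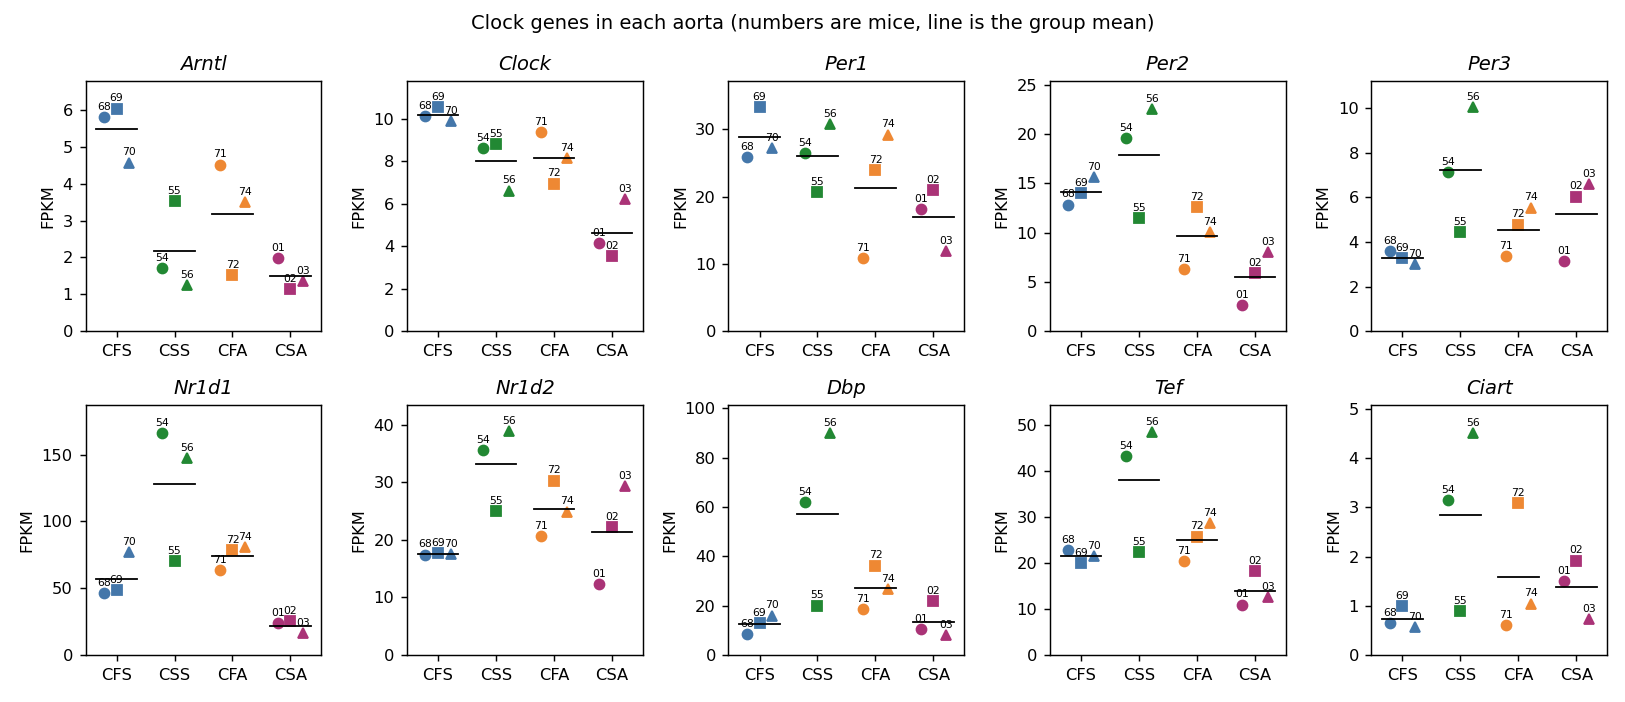
FPKM of the 10 clock genes (vertical axes, linear from 0) in each aorta, by group (horizontal axes), with the mouse number beside each point and the group mean as a line. The CFS mice span 17.4 to 17.8 FPKM for Nr1d2 and 46.1 to 77.03 FPKM for Nr1d1, Dbp reaches 89.9 FPKM in CSS mouse 56, and Nr1d1 lies between 16.2 and 25.0 FPKM in the 3 CSA mice.

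Among the Period genes, whose proteins inhibit the activator pair, Per2 (ENSMUSG00000055866, chr1:91415982-91459324) differed most with Ang II in the CCN2SMC∆ mice. Per2 was at 19.6, 11.4 and 22.5 FPKM in CSS and at 2.65, 5.90 and 8.06 FPKM in CSA, with no overlap. It fell by 1.75 on the log2 scale (SE 0.39, adjusted p = 0.00382, called), a call that was lost without CSA mouse 01, at a log2 fold change of -1.30. In the floxed mice it was at 12.9, 13.98 and 15.7 FPKM under saline and at 6.27, 12.6 and 10.04 FPKM under Ang II. The difference between CSA and CFA was -0.87 (SE 0.39) with a limma adjusted p of 0.103. It was -1.21 (adjusted p = 0.0307) without CSA mouse 03 and -0.42 (adjusted p = 0.339) without CSA mouse 01.

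Per1 (ENSMUSG00000020893, chr11:69095217-69109960), which also answers to acute signals such as glucocorticoids, was at 25.9, 33.3 and 27.3 FPKM in CFS and 26.5, 20.7 and 30.8 FPKM in CSS. Under Ang II it was at 10.8, 23.9 and 29.2 FPKM in CFA and 18.1, 20.96 and 11.9 FPKM in CSA. No comparison of Per1 passed the test, and the groups under Ang II overlapped. Its difference between CSA and CFA, -0.25 with a 95% interval from -0.998 to 0.499, turned to 0.43 with limma's array weights.

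Per3 (ENSMUSG00000028957, chr4:151003652-151044665), the Period gene with the D-boxes printed above, was at 3.60, 3.28 and 2.99 FPKM in CFS and at 7.15, 4.45 and 10.04 FPKM in CSS. The 3 CSS mice lay above the 3 CFS mice, with a log2 fold change of 1.04 (SE 0.33, unadjusted p = 0.00985, adjusted p = 0.562). In CFA it was at 3.36, 4.78 and 5.54 FPKM, and in CSA at 3.15, 6.04 and 6.59 FPKM. These groups overlapped, and the log2 difference of 0.16 between them had a 95% interval from -0.57 to 0.89.

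Nr1d1 (ENSMUSG00000020889, chr11:98767932-98775333), which encodes the repressor Rev-erb alpha, had the highest mean of the 10 genes in every group but was low in the CSA aortas. It was at 46.1, 48.5 and 77.03 FPKM in CFS and at 166, 70.2 and 147 FPKM in CSS. Under Ang II it was at 63.4, 78.5 and 80.7 FPKM in CFA and at 23.9, 25.02 and 16.2 FPKM in CSA. The 3 CSA mice lay below all 9 others. Nr1d1 fell by 1.78 on the log2 scale between CFA and CSA (SE 0.32, adjusted p = 0.00113) and by 2.48 between CSS and CSA (SE 0.32, adjusted p = 9.57e-05), and both were called. Leaving out each mouse in turn kept the former between -1.90 and -1.59, and with array weights it was -1.48, under the fold limit. Of its exonic bases, 8.55% are shared with Thra on the opposite strand, whose fragments cannot be told apart without a stated strand of counting.

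Nr1d2 (ENSMUSG00000021775, chr14:18204054-18239127) encodes Rev-erb beta. It was at 17.4, 17.8 and 17.5 FPKM in CFS, the tightest group of any of the 10 genes, and at 35.6, 24.97 and 38.96 FPKM in CSS. In CFA it was at 20.7, 30.3 and 24.9 FPKM and in CSA at 12.4, 22.2 and 29.4 FPKM. The CSS and CFA mice all lay above the 3 CFS mice, with log2 differences of 0.89 (SE 0.28, adjusted p = 0.562) and 0.51 (adjusted p = 0.652). CSA overlapped CFS, CSS and CFA, and its log2 difference from CFA was -0.32 with a 95% interval from -0.94 to 0.31 and from CSS -0.70 with one from -1.33 to -0.07 (adjusted p = 0.0662). The latter passed without CSS mouse 55 (adjusted p = 0.0417) and without CSA mouse 03 (adjusted p = 0.00959). With 1 mouse left out it ran from -0.97 to -0.35, with limma adjusted p-values up to 0.221.

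Dbp (ENSMUSG00000059824, chr7:45705088-45710203) encodes an output factor with a wide daily swing in many mouse tissues, and ran from 8.13 to 89.9 FPKM over the 12 aortas. It was at 8.46, 12.9 and 15.9 FPKM in CFS and at 61.95, 20.03 and 89.9 FPKM in CSS. Every CSS mouse lay above every CFS mouse, and the means were 57.3 ± 35.1 and 12.4 ± 3.76 FPKM (SD, n = 3 each). The log2 fold change of 1.99 (SE 0.53, unadjusted p = 0.0035) did not pass the adjustment over all genes in limma (adjusted p = 0.398), nor without CSS mouse 55 (2.62, adjusted p = 0.188). Under Ang II, Dbp was at 18.6, 36.2 and 26.8 FPKM in CFA and at 10.3, 21.7 and 8.13 FPKM in CSA, which overlapped (log2 fold change -1.10, SE 0.53, adjusted p = 0.127). It fell by 1.97 on the log2 scale between CSS and CSA (SE 0.53, adjusted p = 0.0109, called), although CSA mouse 02 exceeded CSS mouse 55. Of its exonic bases, 18.0% are shared with Sphk2 on the opposite strand.

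Tef (ENSMUSG00000022389, chr15:81802421-81826863), from the same bZIP family and with the E-box shown above, was at 22.8, 19.99 and 21.5 FPKM in CFS and 43.15, 22.3 and 48.4 FPKM in CSS. It was at 20.4, 25.7 and 28.7 FPKM in CFA and 10.9, 18.1 and 12.5 FPKM in CSA. All 3 CSA mice lay below the 9 others. Tef fell by 0.86 between CFA and CSA (SE 0.28, adjusted p = 0.0301) and by 1.40 between CSS and CSA (SE 0.28, adjusted p = 0.00181), both under the fold limit. The former adjusted p was above 0.05 in 7 of 15 alternatives, where the highest was 0.129, and was 0.101 without CFA mouse 74.

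Ciart (ENSMUSG00000038550, chr3:95878503-95882251), the repressor with 3 E-boxes in its window, overlapped between all 4 groups. It was at 0.646, 0.993 and 0.564 FPKM in CFS, 3.14, 0.883 and 4.51 FPKM in CSS, 0.609, 3.08 and 1.04 FPKM in CFA, and 1.503, 1.92 and 0.722 FPKM in CSA. In CSS the highest mouse had 5.11 times the level of the lowest, and in CFA 5.06 times. No comparison of Ciart passed the test (adjusted p = 0.709 for CSS against CFS, log2 fold change 1.59, SE 0.65), and its difference of 0.01 between CSA and CFA had a 95% interval from -1.42 to 1.45.

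Individual mice stood apart along the 2 arms of the loop in CSS and CFA, and less so in CSA and CFS. CSS mouse 55 was the lowest of its group for 8 of the 8 genes that peak opposite to Arntl and the highest for both Arntl and Clock. CSS mouse 56 was the highest for 7 of those 8 and the lowest for both activators. In CFA, mouse 71 was the lowest for 8 of 8 and the highest for both activators. CFA mice 72 and 74 were each the highest for 4 of 8, and mouse 72 was the lowest for both activators. In CSA, mouse 02 was the highest for 5 of 8 and the lowest for both activators. CSA mice 01 and 03 were each the lowest for 4 of 8 and the highest for 1 activator, and mouse 03 was also the highest for 3 of 8. In CFS, mouse 68 was the lowest for 5 of 8 and the highest for 2. Mouse 69 was the highest for both activators, but the lowest for only 1 of 8 and the highest for 3. Mouse 70 was the lowest for both activators, the highest for 3 of 8 and the lowest for 2. These counts are a description, since genes of 1 loop are not independent of one another.

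The range between the 3 mice of a group, as the highest minus the lowest value of log2(FPKM + 0.1), was compared with that of all 14676 genes tested. In CFS the median range of the 10 genes was 0.32, against 0.34 for all genes. In CSS it was 1.14 against 0.28, with 10 of 10 genes above the median of all genes and 7 of 10 above the range that 90% of all genes do not exceed. In CFA it was 0.83 against 0.39, with 9 of 10 above the median and 3 above the 90% point, and in CSA 0.93 against 0.70, with 9 of 10 above the median and 0 above that point. Dbp spanned 2.16 on the log2 scale in CSS, wider than or equal to 97.3% of tested genes, and Ciart 2.23, at 97.4%. The wide CSS ranges rested on mouse 55: between mice 54 and 56 alone the median range was 0.30 against 0.17 for all genes, with 8 of 10 above the median of all genes and 0 above the 90% point, and Dbp spanned 0.54 and Ciart 0.51. In CFA the median range was 0.29 against 0.27 without mouse 71, 0.51 against 0.21 without mouse 72 and 0.75 against 0.21 without mouse 74. The counts above the median of all genes were 6, 9 and 10 in this order, and those above the 90% point 2, 1 and 5. In CSA the median range was 0.58 to 0.74 with 1 mouse left out, against 0.58 and 0.60 for all genes without mouse 01 or 02 and 0.16 without mouse 03. Without CSA mouse 03, 9 of 10 genes lay above the median of all genes and 6 above the 90% point. Without CSA mouse 01 or 02 these counts were 5 and 0. In CFS the median range was 0.13 to 0.23, against 0.19 to 0.22. Ranges of 2 mice are narrower than those of 3 by construction.

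**Figure D2:**
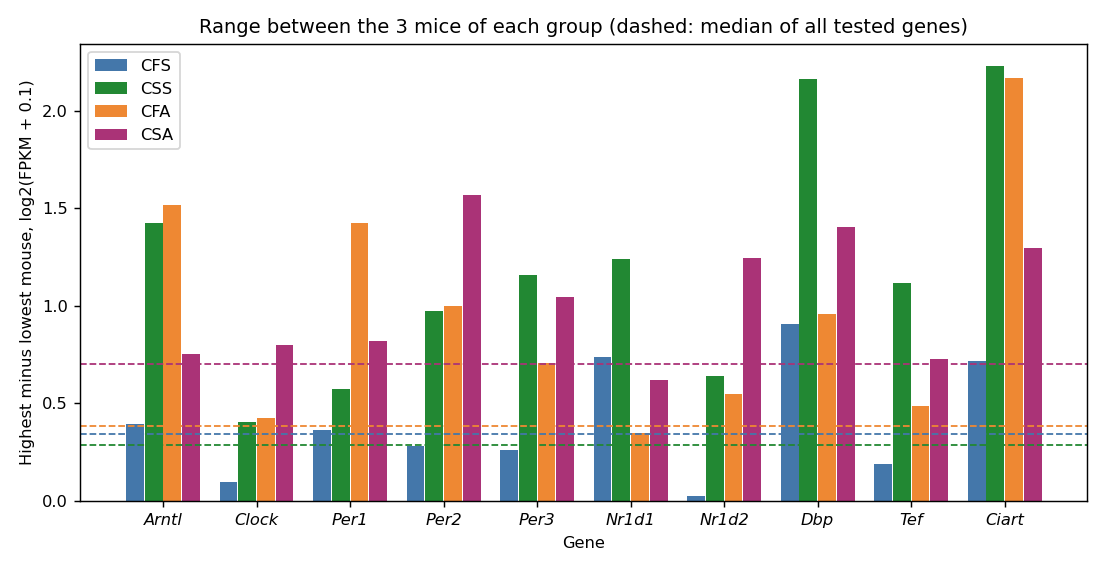
Range between the 3 mice of each group in log2(FPKM + 0.1) (vertical axis, from 0) for each clock gene (horizontal axis), with 1 bar per group and a dashed line at the median of all tested genes in that group. Dbp and Ciart reach 2.16 and 2.23 in CSS, and the Nr1d2 bar in CFS is 0.03.

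Other cell types also differed between these mice, with values as follows. CSS mouse 55 had a summed level of 5 skeletal muscle markers of 243.6 FPKM, against 2.73 and 3.58 FPKM in mice 54 and 56, and of 4 Schwann cell markers of 15.9 FPKM, against 4.04 and 3.61 FPKM. CFA mouse 71 had a summed level of 3 erythrocyte markers of 2321 FPKM, against 694 and 852 FPKM in mice 72 and 74, and these markers were also high in CSA mouse 02, at 566 FPKM against 79.8 and 55.97 FPKM, and in CFS mouse 69, at 1125 FPKM against 138 and 124 FPKM. Endothelial markers summed to 91.4 FPKM in CFS mouse 69, against 393 and 389 FPKM. Adipocyte markers were highest in CFS mouse 70, at 647 FPKM, and, within CSS, in mouse 54, at 249.8 FPKM. In CFA they were lowest in mouse 71, at 89.7 FPKM, against 229 and 258 FPKM in mice 72 and 74. CFA mouse 72 had a summed level of macrophage markers of 575 FPKM, against 303 and 281 FPKM. In CFS, mouse 68 had skeletal muscle markers at 152 FPKM against 3.93 and 3.31 FPKM, and Schwann cell markers at 23.5 FPKM against 6.85 and 9.44 FPKM. The part of these markers in the spread of the clock genes was not tested.

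The ratio of Dbp to Arntl, whose transcripts peak at opposite times, is a simple marker of clock phase and gives 1 number per mouse. As log2 Dbp minus log2 Arntl it was 0.54, 1.09 and 1.78 in CFS, 5.09, 2.47 and 6.06 in CSS, 2.02, 4.49 and 2.91 in CFA, and 2.33, 4.14 and 2.502 in CSA. The FPKM ratio ran from 1.46 in CFS mouse 68 to 71.8 in CSS mouse 56. The 3 CFS mice had the 3 lowest values of the 12, and CSS mice 56 and 54 the 2 highest. The means were 4.54 ± 1.86 in CSS, 3.14 ± 1.25 in CFA, 2.99 ± 1.002 in CSA and 1.13 ± 0.62 in CFS (SD, n = 3 per group). CSS, CFA and CSA overlapped one another. The mice of CSS alone spanned 3.58 and those of CFA 2.47, and without CSS mouse 55 the CSS span was 0.96 and its mean 5.57. The CFA span was 1.58 without mouse 71, 0.89 without mouse 72 and 2.47 without mouse 74.

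The same measure over all 10 genes, the mean log2 level of the 8 genes that peak opposite to Arntl minus the mean of Arntl and Clock, was 0.43, 0.55 and 0.81 in CFS. It was 2.69, 1.202 and 3.36 in CSS, 0.57, 2.41 and 1.49 in CFA, and 1.32, 2.46 and 1.48 in CSA. CFA mouse 71 fell between the CFS mice on this measure. In CSA both arms were low: the mean log2 level of the 8 genes was 2.89, 3.55 and 3.08, against 3.39 to 3.58 in CFS, and that of the 2 activators was 1.57, 1.09 and 1.60, against 2.77 to 3.02. The activators lay below the whole range of CFS in 3 of 3 CSA mice and the opposing arm in 2 of 3, whereas in CSS the activators lay below that range and the opposing arm above it in 3 of 3 mice. No test was made on these scores, because the genes were chosen with results of these data known.

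**Figure D3:**
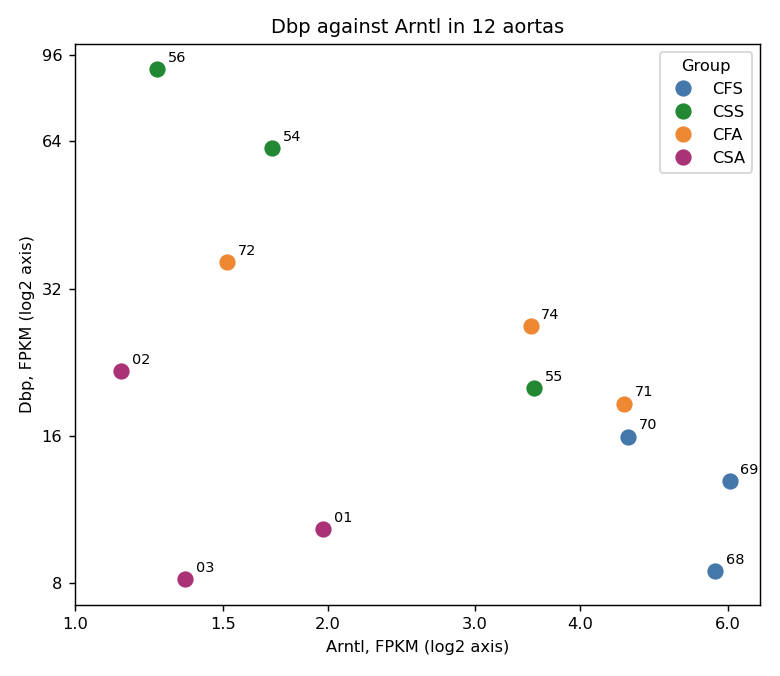
FPKM of Dbp (vertical axis, log2 scale) against FPKM of Arntl (horizontal axis, log2 scale), with 1 point per aorta, coloured by group and marked with the mouse number. CFS mice lie at the lower right with Arntl between 4.57 and 6.03 FPKM, CSS mice 54 and 56 at the upper left, and CSA mice 01 and 03 at the lower left with Dbp at 10.3 and 8.13 FPKM.

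The genotypes under saline were compared by CSS against CFS, groups between which a lower Ccn2 level is not shown in these libraries (values above, limma adjusted p = 1). Of the 10 clock genes 0 were called by limma, where 0.0136% of all tested genes were called, and the smallest adjusted p among them was 0.398. At an unadjusted p under 0.05 there were 7 of 10 (Dbp, Nr1d1, Arntl, Per3, Nr1d2, Tef and Ciart), where 6.3% of all tested genes had such a p. The median absolute log2 fold change was 0.96, against 0.16 for all genes. Groups did not overlap for 5 of 10 (Dbp, Per3 and Nr1d2 above CFS, Arntl and Clock below), against 20.4% of all genes. Without CSS mouse 55 the count at an unadjusted p stayed at 7 and the smallest adjusted p was 0.188, and without CSS mouse 56 the count was 5. None of the cell type markers of the 11 lists was called between these groups. At the unadjusted p there were 3 of 6 fibroblast markers, with 5 of 6 lower in CSS and sums of 1267 to 1478 FPKM in CSS against 1610 to 2056 FPKM in CFS, and 1 each of the 6 T cell, 6 endothelial and 6 adipocyte markers. T cell sums did not overlap either, at 1.46 to 3.44 FPKM in CSS and 0.291 to 1.40 FPKM in CFS, and all 6 adipocyte markers had negative differences, with a median of -1.21 on the log2 scale. Their part in the clock gene differences was not tested.

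Ang II in the floxed mice was compared by CFA against CFS. Of the 10 genes 0 were called (0.0273% of all tested genes), and 0 had an unadjusted p under 0.05, against 9.42% of all genes. The largest differences were those of Dbp, 1.12 (95% interval -0.06 to 2.30, adjusted p = 0.565), and Arntl, -0.89 (95% interval -1.83 to 0.05). Groups did not overlap for 5 of 10 (Dbp and Nr1d2 above CFS, Arntl, Clock and Per2 below), against 20.2% of all genes. The intervals of Dbp and Arntl span changes from near 0 to over the fold limit. Without CFA mouse 71, 2 genes had an unadjusted p under 0.05 in limma, Arntl at -1.199 (adjusted p = 0.599) and Dbp at 1.37 (adjusted p = 0.726). Without CFA mouse 74 there was 1, Per1 at -0.83 (adjusted p = 0.394). Without CFA mouse 72 there were 0, with Arntl at -0.44 (adjusted p = 0.973) and Dbp at 0.89 (adjusted p = 0.916). Of the cell type markers 0 were called, and at the unadjusted p there were 4 of 8 macrophage, 4 of 6 neutrophil, 3 of 6 fibroblast, 1 of 8 smooth muscle and 1 of 3 erythrocyte markers. The fibroblast sums were 2573 to 2866 FPKM in CFA against 1610 to 2056 FPKM in CFS, and the macrophage sums 281 to 575 FPKM against 201 to 242 FPKM, with no overlap. Their part in the clock gene values was not tested.

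The genotypes under Ang II were compared by CSA against CFA. Only Nr1d1 was called, 1 of 10 where 17.2% of all tested genes were called (8.27% lower). With no fold limit, 3 of 10 had an adjusted p under 0.05 (Nr1d1, Clock and Tef, all lower), where 40.7% of all genes did (21.2% lower). Groups did not overlap for the same 3 genes, against 48.5% of all genes. The median log2 fold change of the 10 was -0.85 against -0.04 for all genes. Of the 7 others, Dbp, Per2, Arntl, Nr1d2 and Per1 had negative fold changes that did not pass the test, and Per3 and Ciart had positive ones of 0.16 and 0.01.

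Ang II in the CCN2SMC∆ mice was compared by CSA against CSS. All 10 fold changes were negative, and 3 of 10 were called lower, Nr1d1, Dbp and Per2, where 20.3% of all tested genes were called (9.36% lower). With no fold limit 5 of 10 had an adjusted p under 0.05, these 3 with Tef and Clock, against 46.2% of all genes (23.9% lower). Groups did not overlap for Nr1d1, Per2, Tef and Clock, 4 of 10 against 55.4% of all genes. Without CSS mouse 55, Tef was called as well, with a log2 fold change of -1.75, and Nr1d2 reached an adjusted p of 0.0417. The CSS mean was the highest of the 4 groups for 7 of the 8 genes of the opposing arm, all but Per1.

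**Figure D4:**
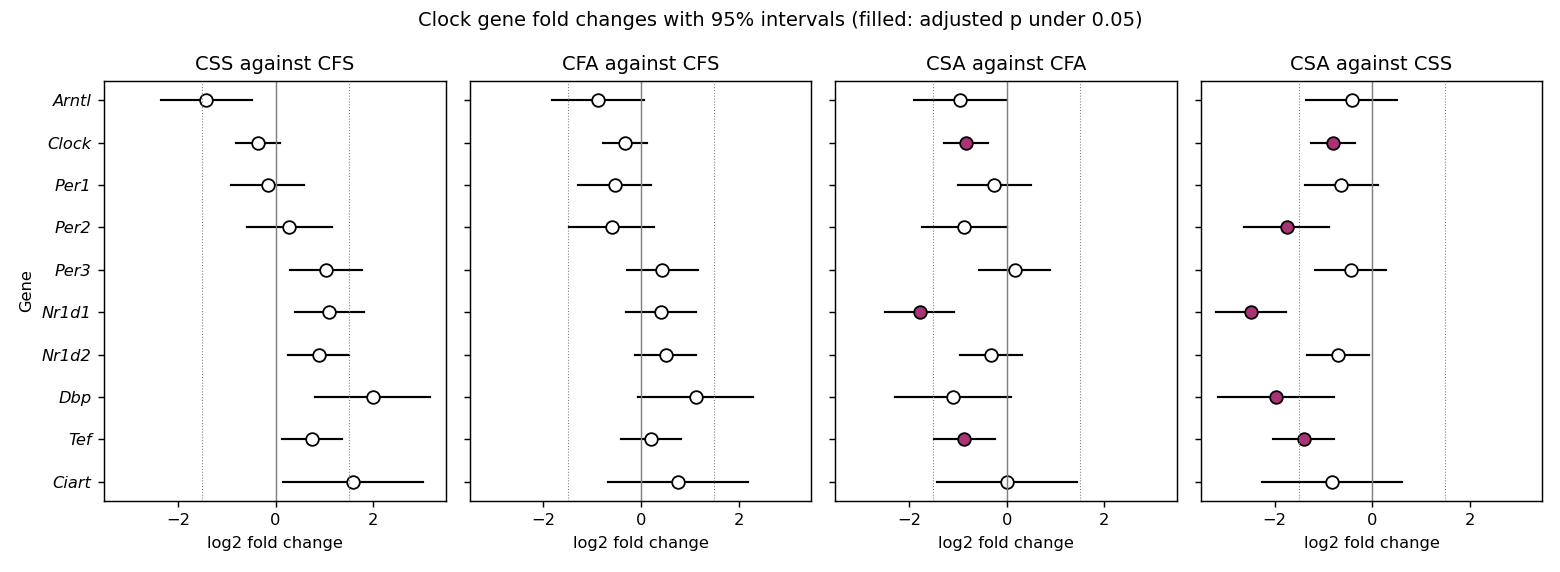
Log2 fold change (horizontal axes) of each clock gene (vertical axis) in 4 comparisons, with 95% intervals from limma, filled points for an adjusted p under 0.05 and dotted lines at the fold limit of 1.5. No point is filled for CSS against CFS or CFA against CFS, 3 are filled for CSA against CFA and 5 for CSA against CSS.

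The interaction asks whether the genotype difference under Ang II differs from that under saline. It was called for 3 of 10 genes, all negative, where 15.2% of all tested genes were called (7.31% lower). Dbp had an interaction of -3.09 on the log2 scale (SE 0.76, adjusted p = 0.0118), Nr1d1 of -2.89 (SE 0.46, adjusted p = 0.00107) and Tef of -1.61 (SE 0.40, adjusted p = 0.0122). Each of these genes had a higher mean in CSS than in CFS and a lower mean in CSA than in CFA. Nr1d2 had an interaction of -1.204 (SE 0.40, adjusted p = 0.0479), which was above 0.05 in 13 of 20 alternatives. Arntl, whose difference was negative at both treatments, had an interaction of 0.47 with a 95% interval from -0.86 to 1.80. Tef fell under the fold limit without CSS mouse 54, CSS mouse 56 or CSA mouse 01, with its smallest size there at -1.40, and also with fragment totals (-1.45) and array weights (-1.32), while Nr1d1 and Dbp stayed called with each mouse left out in turn.

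Cell type markers also differed in the comparisons of CSA with CFA and with CSS. Of all tested genes 17.2% were called between CSA and CFA (8.27% lower) and 20.3% between CSA and CSS (9.36% lower). With no fold limit, 40.7% had an adjusted p under 0.05 between CSA and CFA (21.2% lower). Besides the smooth muscle and macrophage sums given above, 6 of 6 tested neutrophil markers were called higher in CSA than in CFA. The neutrophil sums were 11.0 to 28.0 FPKM in CFA and 512 to 564 FPKM in CSA. Of the 7 neutrophil markers listed, 4 were under 1 FPKM in every CFS mouse, 4 in every CSS mouse and 2 in every CFA mouse, against 1 in every CSA mouse. For any that passed the filter on low values only through the CSA mice, the call describes a level and is not a test. Of the T cell markers 6 of 6 were called higher, with sums of 0.922 to 2.66 FPKM in CFA and 25.5 to 35.1 FPKM in CSA. All 6 T cell markers were under 1 FPKM in every CFS and CFA mouse, and 5 were in every CSS mouse. They passed the filter on low values only with the CSA mice, where they are high. Their calls as higher are therefore a description of their level and not a test. Of the 6 endothelial markers 3 were called lower, with sums of 193 to 427 FPKM in CFA and 103 to 134 FPKM in CSA. Of the 6 fibroblast markers 0 were called, with sums of 2573 to 2866 FPKM and 4276 to 5134 FPKM, and 3 had an adjusted p under 0.05 in the higher and 2 in the lower direction. None of these 6 lists had a gene at 0 in all 3 CSA mice. Of the others, 3 of 3 erythrocyte and 2 of 6 adipocyte markers were called lower, 1 of 2 tested B cell markers higher, and 0 of 4 tested skeletal muscle and 0 of 4 Schwann cell markers either way. Of the 4 B cell markers listed, 3 were under 1 FPKM in every CFS mouse and 3 in every CFA mouse, against 2 in every CSA mouse, so the same limit applies to the B cell call. Between CSA and CSS, where Per2 and Dbp were called, the counts were the same for smooth muscle (8 of 8 lower), macrophage (7 of 8 higher), neutrophil (6 of 6 higher), T cell (6 of 6 higher), B cell (1 of 2 higher), adipocyte (2 of 6 lower) and Schwann cell markers (0 of 4). They were 3 of 6 higher for fibroblast markers, 1 higher and 3 lower of 6 for endothelial markers, 2 of 4 lower for skeletal muscle markers and 0 of 3 for erythrocyte markers. The T cell calls in this comparison also rest on markers that passed the filter only with the CSA mice. The limits given for the neutrophil and B cell calls hold here too. The part of the cell types in the clock gene differences was not tested. Between CSS and CFS the smooth muscle sums were 7752 to 8806 FPKM and 8257 to 10366 FPKM, and the macrophage sums 218 to 266 FPKM and 201 to 242 FPKM. The fibroblast and T cell sums of CSS and CFS, given above, did not overlap.

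A list of 22 further clock genes was read in the same fits, and 20 of them were tested. Rorb and Fbxl21 were too low. Of the 20, 6 were called between CSA and CFA (2 higher, 4 lower), 6 between CSA and CSS (2 higher, 4 lower) and 6 in the interaction, against 17.2%, 20.3% and 15.2% of all tested genes. By limma 0 were called in CSS against CFS and in CFA against CFS, where 6 and 4 had an unadjusted p under 0.05, against 6.3% and 9.42% of all tested genes.

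Npas2, a paralog of Clock that peaks with Arntl, was at 12.5, 14.3 and 8.36 FPKM in CFS, 2.79, 8.42 and 2.06 FPKM in CSS, 11.2, 3.13 and 8.65 FPKM in CFA, and 3.27, 0.649 and 0.586 FPKM in CSA. As for Arntl, CSS mouse 55 and CFA mouse 71 were the highest of their groups and CFA mouse 72 the lowest. Npas2 fell by 2.51 on the log2 scale between CFA and CSA (SE 0.70, adjusted p = 0.0142, called), with an adjusted p of 0.0589 without CFA mouse 71. Nfil3, the D-box repressor that opposes Dbp and Tef, was at 27.1, 40.8 and 20.7 FPKM in CFS and at 5.26, 20.5 and 3.95 FPKM in CSS. Its log2 difference of -1.90 between CSS and CFS (SE 0.49, adjusted p = 0.375) reached an adjusted p of 0.0347 without CSS mouse 55. Under Ang II Nfil3 was at 9.95, 13.2 and 11.8 FPKM in CFA and 18.01, 15.9 and 14.5 FPKM in CSA, and its interaction was called at 2.37 (adjusted p = 0.0279), although the adjusted p was above 0.05 in 8 of 20 alternatives.

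The cryptochromes, which join the Per proteins in repression, moved in opposite directions in CSA. Cry1 was at 4.05, 3.06 and 3.98 FPKM in CFS, 1.90, 2.39 and 1.58 FPKM in CSS, 1.43, 1.86 and 1.14 FPKM in CFA, and 2.14, 4.02 and 2.72 FPKM in CSA. It rose by 0.93 on the log2 scale between CFA and CSA (SE 0.26, adjusted p = 0.0149), under the fold limit, and its interaction was called at 1.82 (adjusted p = 0.00437). Cry2 was at 7.92, 8.25 and 9.05 FPKM in CFS, 13.3, 8.08 and 15.02 FPKM in CSS, 8.65, 8.44 and 9.33 FPKM in CFA, and 3.26, 3.73 and 2.09 FPKM in CSA. Cry2 fell by 1.55 between CFA and CSA (SE 0.24, adjusted p = 4.61e-04) and was called, with the 3 CSA mice below all 9 others.

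Rora, which activates Arntl through the element that Nr1d1 represses, was lower in the 3 CSA mice than in all 9 others. It was at 7.45, 8.78 and 7.83 FPKM in CFS, 6.57, 7.32 and 6.06 FPKM in CSS, 7.66, 7.65 and 6.18 FPKM in CFA, and 2.02, 1.96 and 2.46 FPKM in CSA, a log2 fold change of -1.69 between CSA and CFA (SE 0.14, adjusted p = 7.17e-06). Hlf, the third PAR bZIP gene beside Dbp and Tef, was at 3.07, 3.83 and 3.42 FPKM in CFA and at 0.125, 0.550 and 0.547 FPKM in CSA. It fell by 2.95 on the log2 scale (SE 0.43, adjusted p = 2.65e-04), and the lowest value, that of CSA mouse 01, rests on 17 fragments.

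The called genes that were higher in CSA were Noct and Timeless. Noct, a rhythmic gene for an NADP(H) phosphatase, was at 0.599, 1.24 and 0.624 FPKM in CFA and at 3.69, 3.39 and 4.18 FPKM in CSA, a log2 fold change of 2.13 (SE 0.36, adjusted p = 6.72e-04). Timeless, whose product works mainly at replication forks in mammals, was at 1.07, 1.25 and 1.12 FPKM in CFA and at 4.12, 3.78 and 3.05 FPKM in CSA, and rose by 1.58 (SE 0.24, adjusted p = 3.71e-04). Bhlhe41, an E-box repressor, was at 1.93, 2.98 and 2.62 FPKM in CFS, 8.57, 3.69 and 10.03 FPKM in CSS, 3.57, 5.48 and 2.62 FPKM in CFA, and 1.82, 2.91 and 1.54 FPKM in CSA. It was called lower between CSS and CSA, by 1.71 (adjusted p = 0.00422), with CSS mouse 55 the lowest of its group as for Dbp, and shares 19.05% of its exonic bases with Gm43909 on the opposite strand.

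**Figure D5:**
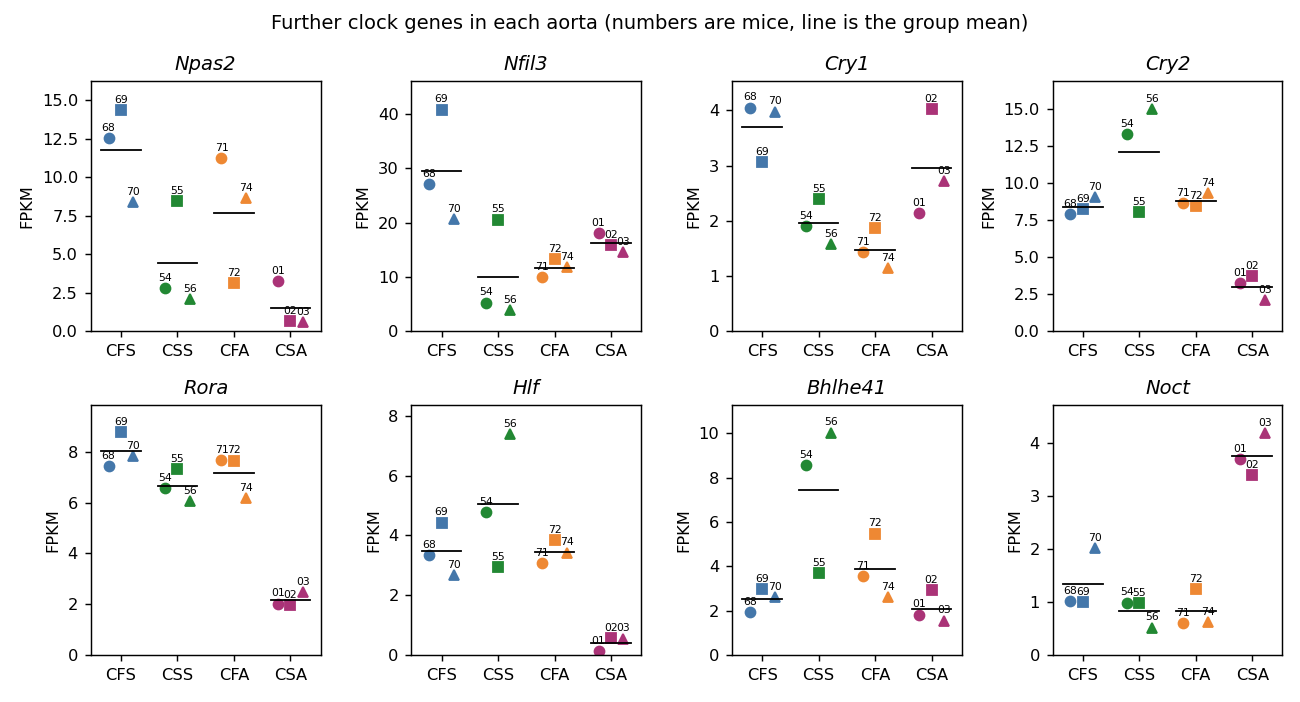
FPKM of 8 further clock genes (vertical axes, linear from 0) in each aorta, by group (horizontal axes), with mouse numbers and the group mean as a line. Npas2 and Nfil3 are lower in CSS mice 54 and 56 than in mouse 55, and Rora, Cry2 and Hlf are lowest in the 3 CSA mice.

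The genes whose profile over the 12 libraries lay nearest to that of Dbp, by the root mean square difference of centred log2 values, were Tef at 0.59, Nr1d1 at 0.62 and Coro6 at 0.65, where the median over 7777 genes with a mean of at least 5 FPKM was 1.06. Among those nearest to Arntl were Adamts15 at 0.32 and Acly at 0.47, where the median over 7778 genes was 0.89. The first pair nearest to Dbp are themselves among the 10 clock genes, and no clock gene was among the 3 nearest to Arntl. All distances are over the same 12 libraries and are a description.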

How the data were processed

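RNA-Seq of the abdominal aorta covered 12 mice, 3 in each of 4 groups, with groups and mouse numbers from the sample labels; 0 columns of the table were left unused. The authors deposited FPKM, 1 value per gene and mouse, from poly(A) libraries read as pairs of 150 bases. The submitters' processing notes name HISAT2 2.0.5, StringTie 1.3.3b, featureCounts 1.5.0-p3 and mm10; the strand of counting is not given in the sources used here. Median-of-ratios factors computed from these deposited values were equal in all 12 libraries, so the FPKM had been scaled to one another beforehand.

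Symbols and positions came from GENCODE M21 (GRCm38), promoter windows from RefSeq. Fragments were recovered from FPKM and exon length, 98.1% to 98.5% of values under 100 being whole within 0.05, and served as depth; such limits cover counting error only. Log2(FPKM + 0.1) was fitted in R 4.3.3 with limma 3.58.1 (lmFit, eBayes with trend and robust), 1 coefficient per group, over the 14676 genes with at least 1 FPKM in at least 3 libraries, with Benjamini-Hochberg adjustment over all of them. A gene was called where the adjusted p was under 0.05 and the log2 fold change exceeded 1.5 in size. Tables and figures used Python 3.11.15. The fit was tested on simulated data.

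The 10 clock genes are named in full, and of 22 further clock genes those called plus Cry1, Cry2, Npas2, Rora, Hlf and Nfil3. The 2 genes with the largest change of each of 2 stress-related lists and those among the 3 nearest to Dbp and to Arntl are named too; results for some genes under this rule are not reported here. Members and lists were chosen with earlier results of these data known. Alternatives were a pseudocount of 1, no filter, a mean of at least 5 FPKM, other scalings, eBayes without trend or robust, array weights, only the compared groups, other call rules, treat, and each mouse left out; scaling to fragment totals and ranges between mice with 1 left out were added after seeing the data.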

Additional observations from a re-analysis of the deposited data

Results flagged for a closer look

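The genotype difference under Ang II (CSA minus CFA) differed from that under saline (CSS minus CFS) for 9 clock genes (3 of the 10 followed in full and 6 of the 20 further ones tested), by limma's interaction term with adjusted p-values under 0.05 and a size over 1.5 on the log2 scale. It was negative for Dbp (-3.09), Nr1d1 (-2.89), Tef (-1.61), Cry2 (-2.03), Hlf (-3.41) and Bhlhe41 (-2.28), which had higher means in CSS than in CFS and lower means in CSA than in CFA. It was positive for Cry1 (1.82), Nfil3 (2.37) and Noct (2.75), for which both signs were turned. Of all tested genes 15.2% had such an interaction. Nfil3 lost the call in 8 of 20 alternatives, its adjusted p reaching 0.0696 with a mouse left out. Tef fell under the fold limit with fragment totals (-1.45), array weights (-1.32), and without CSS mouse 54, CSS mouse 56 or CSA mouse 01, and none of Dbp, Nr1d1 and Tef was called by treat. Time of collection cannot be told apart from group, and the part of the cell types in these differences was not tested.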

How the results depend on the processing

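No paired analysis was possible because the groups share no mouse numbers. Of 1164 alternative values for 74 single-gene results, 1108 kept direction and side of the threshold, 31 lost it, 9 gained it and 16 reversed. The values kept include results that passed the test in neither fit. They also include median-of-ratios scaling, which divided every library by the same factor and could hardly change a result. The count of called clock genes between CSA and CFA, 1, became 3 without a fold limit and 0 with array weights or treat; that between CSS and CFS, 0, became 2 with an unadjusted p and the same fold limit; that between CSA and CSS, 3, became 5 without a fold limit and 0 with treat; and that in the interaction, 3, became 0 with treat, which tests for more than the fold limit itself. With 1 mouse left out these counts ran from 1 to 1, 0 to 0, 2 to 4 and 2 to 3, and for CFA against CFS from 0 to 0. When only CSS and CFS were fitted, the genes with a limma adjusted p under 0.05 between them went from 3 to 75, and 0 of the 10 clock genes were called.

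The cause of the reversals was not tested. For Per1 they were the difference between CSA and CFA, 0.43 with array weights and -0.68 to 0.036 with 1 mouse left out, and the interaction, 0.067 with fragment totals, 0.54 with array weights and -0.52 to 0.19 with 1 mouse left out. Also between CSA and CFA, Ciart was -0.032 with a pseudocount of 1 and -0.46 to 0.62 with 1 mouse left out, and with 1 mouse left out Per3 was -0.038 to 0.49 and Nr1d2 -0.59 to 0.030. Scaling to fragment totals moved the median of all genes by 0.16 between CSA and CFA and 0.18 between CSA and CSS, and Nr1d1 from -1.78 to -1.63. The differences of Dbp and Arntl under saline did not pass the adjustment. Of the 10 clock genes Ciart had the fewest fragments, 22 to 222.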

Other observations

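Genes that answer to glucocorticoids and to acute stimuli also follow the hour and the handling of an animal, and they were read in the same fits. Of 10 glucocorticoid-responsive genes, 2 were called between CSA and CFA, Mt2 higher and Klf9 lower. By limma 0 were called between CSS and CFS or between CFA and CFS, where 4 and 3 had an unadjusted p under 0.05. Between CSA and CSS 3 were called, Mt2 higher and Klf9 and Zbtb16 lower. Mt2 passed the filter on low values only through the CSA mice, the group where it is high. Its calls as higher are therefore a description of its level and not a test. Of all tested genes 17.2% were called between CSA and CFA and 20.3% between CSA and CSS, and 6.3% and 9.42% had an unadjusted p under 0.05 between CSS and CFS and between CFA and CFS. Zbtb16 is named here after its values were seen, as are Egr1 and Nr4a1 below. Klf9, a glucocorticoid-induced transcription factor that is rhythmic in many tissues, was at 50.9, 72.1 and 74.2 FPKM in CFA and at 16.5, 19.04 and 18.3 FPKM in CSA. It fell by 1.85 on the log2 scale (SE 0.21, limma adjusted p = 5.39e-05), with no overlap between the groups. Mt2, a metallothionein, was listed at 0 in every CFS and CFA mouse, at 1 to 4 fragments in CSS and at 1.34, 2.24 and 6.66 FPKM in CSA, and shares 73.5% of its exonic bases with an annotated gene on the opposite strand.

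Of 9 immediate early genes, which respond within minutes to stretch, growth factors or tissue handling, 2 were called between CSA and CFA (17.2% of all tested genes) and 0 in either comparison with CFS. Fosb fell by 2.27 (SE 0.47, adjusted p = 0.00271) and Egr2 rose by 1.68 (SE 0.34, adjusted p = 0.00224). At an unadjusted p under 0.05 there were 1 of 9 between CSS and CFS and 3 of 9 between CFA and CFS, against 6.3% and 9.42% of all tested genes. Between CSA and CSS 3 of 9 were called (20.3% of all tested genes), Fosb, Egr1 and Nr4a1, all lower.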
